A study of Danio rerio with 6 samples.

Results

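A set of 49 leukocyte and lymphoid marker genes was followed in bulk mRNA sequencing of guts dissected from larval zebrafish 5 days post-fertilization (dpf). The genes were chosen by symbol as markers of white blood cells, and 45 of the 49 were listed in the deposited table of 15419 genes. The symbols ptprc, laptm5, marco and csf1rb had no row and were not analysed here. The libraries came from 3 pools of guts of il26KO larvae, which are homozygous for a CRISPR/Cas9-made deletion in il26 (the cytokine interleukin-26), and 3 pools of guts of wild-type (WT) larvae. The study lists AB as its wild-type line. Each pool held 10 to 15 guts. Larvae of the genotypes descended from clutchmate adults kept in separate tanks, so genotype cannot be told apart from tank and clutch. No treatment is listed for either group.

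White blood cells of the zebrafish larva are mainly innate. Neutrophils kill microbes with granule enzymes such as Mpx and with the NADPH oxidase, and macrophages take up debris and microbes. Both arise under the transcription factors Spi1 (Pu.1) and C/EBP. T cells, which rearrange their receptors with Rag1 and Rag2, are still maturing in the thymus at this age. Innate lymphoid cells (ILCs) lack rearranged receptors and make cytokines by group, such as tumour necrosis factor in group 1 and interleukin-13 in group 2. The study followed ILCs as a source of interleukin-26, which was the reason to ask here how much leukocyte mRNA the gut pools held and whether it differed with genotype. Its ILC markers nitr4a, gata3, il13, eomesa and tnfa were read in published single-cell data from chemically inflamed larval guts. There, ILCs with il26 mostly expressed the group 3 marker rorc, and markers of groups 1 and 2 were largely missing from them. The gene rorc is not in the set followed here.

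Total counts ranged from 15693057 to 28303340 per library. Taking 3 counts as the detection limit, this corresponds to 0.106 to 0.192 CPM (counts scaled to a common library size), a limit that covers counting error only. il26 itself was listed at 0 in all 6 libraries, so the genotype labels could not be checked on it. The tissue label fitted its defining markers in part. The epithelial genes vil1 and cldn15la had at least 43669 and 8903 counts in every library, but epcam was listed at 0 throughout. The enterocyte gene fabp2 was also low, with 5, 7 and 12 counts in il26KO and 9, 2 and 10 counts in WT. The libraries also held mRNA of neighbouring organs, with hepatocyte markers summing to 12420.0 ± 1672 CPM in il26KO and 14251 ± 5353 CPM in WT (SD, n = 3 each) and acinar pancreas markers to 13235 ± 3128 CPM in il26KO and 14203 ± 1804 CPM in WT. Across all 11095 genes with enough counts to test, 12 (0.108%) passed the edgeR quasi-likelihood test of genotype after Benjamini-Hochberg adjustment (threshold 0.05). Nothing in the labels says how separately the pools of a genotype were raised, so p-values measure only the spread between these pools.

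Leukocyte transcripts were detected in every gut pool, and the share of markers with enough counts to test was higher for myeloid than for lymphoid genes. Of the 45 listed members, 33 had more than 3 counts in all 6 libraries, and 32 had enough counts to test. These shares were near those of the whole table, where 11187 of 15419 genes had more than 3 counts in all 6 libraries and 11095 were tested. All 10 shared myeloid genes and all 5 neutrophil genes were tested, as were 4 of the 5 listed pan-leukocyte genes and 4 of the 5 listed macrophage genes. Of 20 lymphoid genes, 9 could be tested. These were 5 of 9 receptor and signalling genes, 4 of 7 transcription and recombination genes and 0 of 4 effector genes of natural killer (NK) cells and ILCs. A further 9 members had between 2 and 50 counts over the 6 libraries together, and 4 were listed at 0 throughout. In bulk RNA a lower level can mean fewer cells of a type or less RNA per cell, and these cannot be told apart.

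Listed at 0 were mpeg1.1, the macrophage perforin-like gene widely used to label larval macrophages, and the T cell and lymphoid genes lck, cd8a and tbx21. A count of 0 allows up to the limit given above, but in this table it was not a reliable sign of absence. The proteasome is needed in every cell, yet 3 of its 38 listed subunit genes, psma5, psmc6 and psmd10, were also at 0 in all libraries, while the remaining 35 had more than 100 counts in each. In all, 1899 genes were listed at 0. The pan-leukocyte actin regulator coro1a had 0, 0 and 1 counts in il26KO and 0, 0 and 1 counts in WT. Its relatives coro1b and coro1ca had at least 295 and 791 counts in every library, which does not tell what level coro1a should have. These relatives, like mpeg1.2, cebpd and nitr5 in what follows, were chosen after their values were seen. For mpeg1.1, its relative mpeg1.2 had 39, 20 and 37 counts in il26KO and 39, 45 and 95 counts in WT, with the highest value in WT replicate 3.

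Between genotypes, the 32 tested members showed small differences. These 32 passed a filter on low counts and do not stand for all 49. With adjustment over all 11095 genes, the edgeR test called 0 of them, against 0.108% of all genes tested, and the lowest adjusted p-value was 0.560 (cebpa). DESeq2 and the edgeR likelihood ratio test also called 0 members. At an unadjusted p-value below 0.05 there were 2 members, cebpa (higher) and mfap4 (lower). This is 6.25% of the members, against 6.03% of all genes tested, of which 3.52% were higher and 2.51% lower. The groups did not overlap in 4 members, cebpa and ncf4 (higher) and rac2 and mfap4 (lower). Their share of 12.5% was near the 10.9% of all genes tested (5.94% higher and 4.91% lower). The log2 fold change was positive in 18 members and negative in 14, against 53.2% positive among all genes tested. Its median was 0.046 over the members and 0.011 over all genes tested, and 25 members differed by less than 0.25 on the log2 scale. By class the median was 0.18 over 4 pan-leukocyte genes, 0.048 over 10 shared myeloid genes, 0.067 over 5 neutrophil genes, -0.066 over 4 macrophage genes and 0.040 over 9 lymphoid genes.

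**Figure D1:**
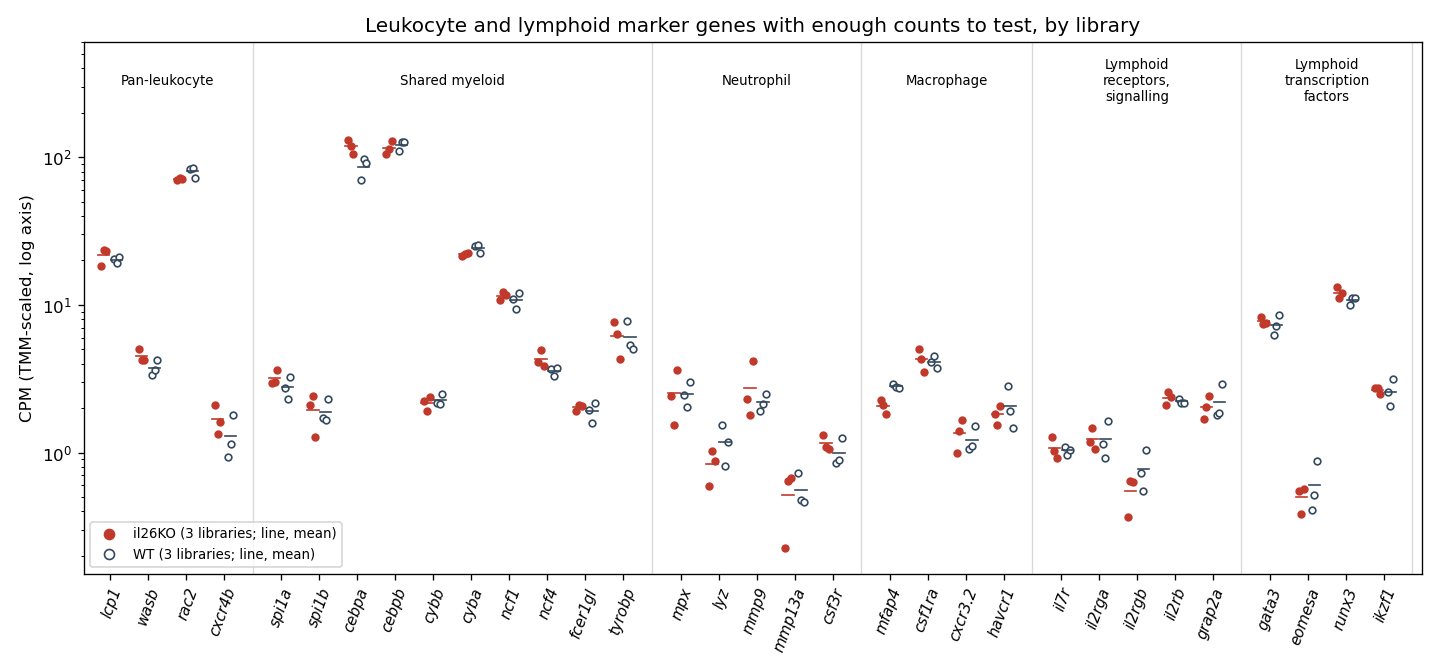
CPM of the 32 tested marker genes in each library on a log axis, grouped by lineage, with il26KO libraries as filled points left of WT libraries as open points and lines at the group means. The groups overlapped in all but rac2, cebpa, ncf4 and mfap4.

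**Figure D2:**
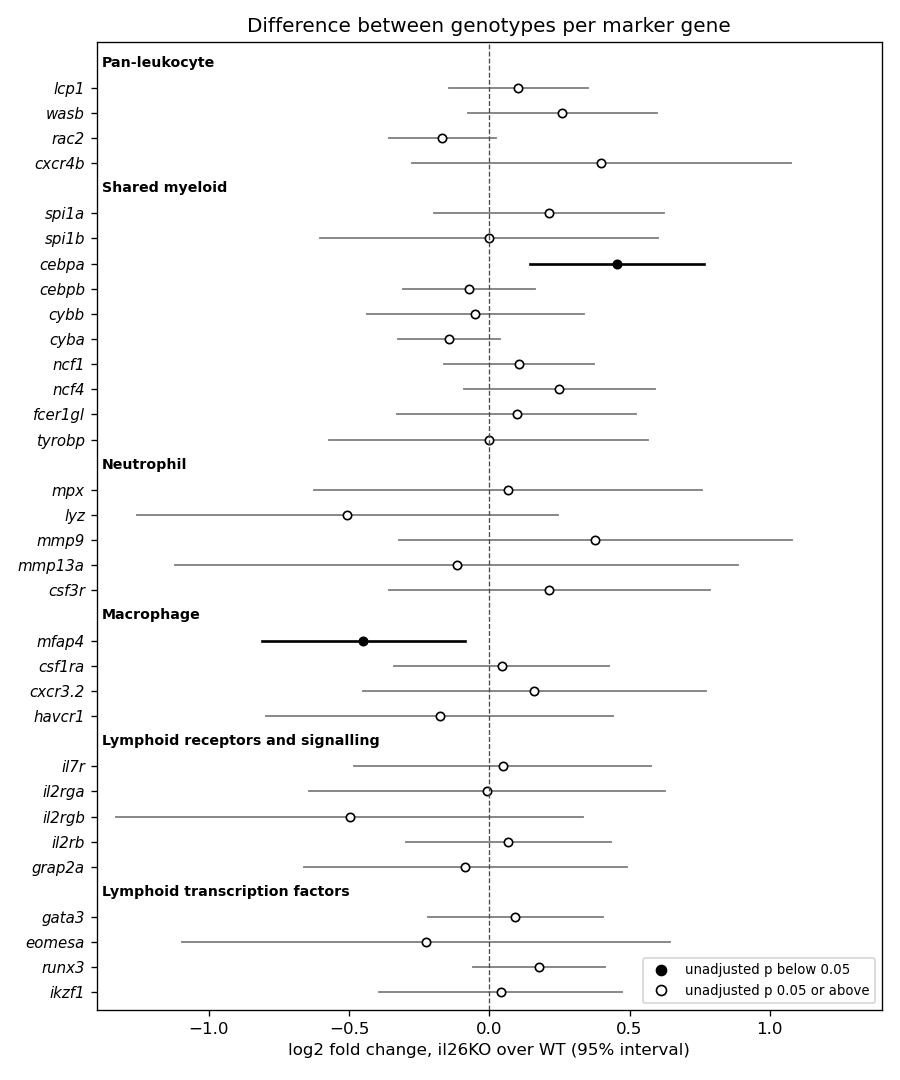
Log2 fold change of il26KO over WT for the 32 tested marker genes, with bars for the 95% interval derived from the edgeR quasi-likelihood F statistic and filled points for genes with an unadjusted p-value below 0.05. Only the intervals of cebpa and mfap4 exclude 0, and neither gene passed adjustment over all genes.

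Of the 5 listed pan-leukocyte genes, the 4 tested were above the detection limit in all libraries of both genotypes, and coro1a was below it. Among the tested genes, rac2, a GTPase that drives movement of neutrophils, had 70.3, 72.8 and 71.6 CPM in il26KO replicates 1, 2 and 3, against 83.2, 85.1 and 72.9 CPM in WT replicates 1, 2 and 3. All il26KO values lay below all WT values, but only just below WT replicate 3, and with RLE size factors the groups overlapped. Its log2 fold change of -0.17 ± 0.083 (SE; 95% interval -0.36 to 0.024) did not pass the edgeR test (adjusted p = 0.866). Enterocyte markers were likewise high in WT replicates 1 and 2 and low in WT replicate 3. They summed to 8281, 7948 and 7503 CPM in il26KO and 9794, 8929 and 6318 CPM in WT, with epcam at 0 and fabp2 at 2 to 12 counts per library. Their part in the rac2 values was not tested. The actin-bundling protein gene lcp1 (L-plastin) had 18.5, 23.5 and 23.2 CPM in il26KO, against 20.3, 19.3 and 21 CPM in WT. Its groups overlapped, and the log2 fold change of 0.10 ± 0.11 (SE) had an interval of -0.14 to 0.35. For wasb, which encodes a Wiskott-Aldrich syndrome protein of the leukocyte cytoskeleton, values were 4.99, 4.22 and 4.23 CPM in il26KO and 3.37, 3.64 and 4.22 CPM in WT. WT replicate 3 reached the level of il26KO replicates 2 and 3 (log2 fold change 0.26 ± 0.15, SE). The chemokine receptor gene cxcr4b had 2.09, 1.34 and 1.62 CPM in il26KO and 0.934, 1.14 and 1.8 CPM in WT, again with WT replicate 3 inside the il26KO range. Summed over the class, levels were 99.5 ± 3.2 CPM in il26KO and 106 ± 4.97 CPM in WT (SD, n = 3 each), of which rac2 took 71.1% to 77.9%. CPM are not corrected for gene length, so such shares do not compare numbers of transcripts. Without rac2 the sums were 27.9 ± 2.02 CPM in il26KO and 25.3 ± 1.59 CPM in WT, with overlapping groups.

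Among shared myeloid genes, cebpa stood out. This C/EBP transcription factor starts granulocyte development and is also expressed in liver and gut. It had 130.0, 119 and 106 CPM in il26KO replicates 1, 2 and 3, against 70.5, 97 and 91.5 CPM in WT replicates 1, 2 and 3. Every il26KO library was above every WT library, and WT replicate 1 was the lowest. Levels averaged 118 ± 12.1 CPM in il26KO and 86.3 ± 14 CPM in WT (SD, n = 3 each). In the edgeR fit the log2 fold change was 0.45 ± 0.13 (SE), and its 95% interval ran from 0.14 to 0.76. The unadjusted edgeR p-value was 0.00961 and the adjusted one 0.56, so it was not called. With any 1 library left out, the fold change was 0.32 to 0.55 on the log2 scale and its unadjusted edgeR p-value stayed below 0.05. Hepatocyte markers did not follow the cebpa order. They summed to 13556, 10500.0 and 13205 CPM in il26KO and 8196, 18353 and 16204 CPM in WT, lowest in WT replicate 1 but highest in WT replicates 2 and 3, and their part in the cebpa values was not tested. The related cebpd had 358, 226 and 274 CPM in il26KO and 170.1, 213 and 202 CPM in WT, without overlap and also uncalled (log2 fold change 0.55 ± 0.17, SE; adjusted p = 0.585 with edgeR). By contrast, cebpb, a C/EBP factor of emergency granulopoiesis in mammals, had 105, 113 and 129 CPM in il26KO and 111, 128 and 127 CPM in WT. These groups overlapped (log2 fold change -0.073 ± 0.10, SE; interval -0.31 to 0.16). Together, cebpa and cebpb took 76.4% to 82.0% of the CPM of the class, and without them the 8 remaining genes summed to 53.3 ± 1.69 CPM in il26KO and 53.5 ± 2.47 CPM in WT (SD, n = 3 each).

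The Pu.1 genes, which drive the myeloid fate, overlapped between genotypes. For spi1a, values were 2.95, 3.0 and 3.6 CPM in il26KO and 2.72, 2.32 and 3.26 CPM in WT, and for spi1b 2.09, 2.43 and 1.27 CPM in il26KO and 1.71, 1.66 and 2.3 CPM in WT. The highest and the lowest spi1b value were both il26KO libraries. The phagocyte NADPH oxidase joins a membrane pair, Cybb and Cyba, with cytosolic subunits such as Ncf1 and Ncf4. The 4 genes summed to 40.0 ± 1.32 CPM in il26KO and 40.9 ± 0.851 CPM in WT (SD, n = 3 each). Of the membrane pair, cybb had 2.22, 1.92 and 2.36 CPM in il26KO and 2.15, 2.14 and 2.51 CPM in WT, and cyba had 21.5, 22 and 22.6 CPM in il26KO and 25.1, 25.4 and 22.5 CPM in WT. The groups overlapped in both. Of the cytosolic subunits, ncf1 had 10.8, 12.3 and 11.6 CPM in il26KO and 10.9, 9.35 and 11.9 CPM in WT. For ncf4 the il26KO values of 4.09, 4.92 and 3.84 CPM all lay above the WT values of 3.7, 3.28 and 3.76 CPM, by a small margin, and the difference did not pass the edgeR test (log2 fold change 0.25 ± 0.15, SE; adjusted p = 0.884). The adaptor genes fcer1gl and tyrobp, whose proteins carry signals from activating receptors of myeloid and NK cells, overlapped too. fcer1gl had 1.91, 2.11 and 2.08 CPM in il26KO and 1.95, 1.58 and 2.17 CPM in WT, a log2 fold change of 0.10 ± 0.18 (SE). tyrobp varied more between pools, with 7.67, 6.39 and 4.3 CPM in il26KO and 7.84, 5.38 and 5.05 CPM in WT, highest in replicate 1 of both genotypes, and its log2 fold change was -0.0022 ± 0.25 (SE).

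In all 5 neutrophil genes the genotypes overlapped. mpx, encoding the myeloperoxidase that marks larval neutrophils, had 2.41, 1.53 and 3.63 CPM in il26KO replicates 1, 2 and 3, against 2.44, 2.02 and 3.01 CPM in WT replicates 1, 2 and 3. Both the lowest and the highest values were il26KO libraries. The fold change of 0.067 ± 0.30 (log2, SE) had a 95% interval of -0.62 to 0.76. The lysozyme gene lyz had 0.59, 1.02 and 0.881 CPM in il26KO and 1.54, 0.81 and 1.17 CPM in WT. Its log2 fold change of -0.51 ± 0.32 (SE) had a wide interval (-1.26 to 0.24) and did not pass the edgeR test (adjusted p = 0.892). mmp9, a matrix metalloproteinase of neutrophil granules that is induced in inflammation, had 2.31, 1.79 and 4.16 CPM in il26KO and 1.91, 2.14 and 2.51 CPM in WT. The high value of il26KO replicate 3 set its direction, since the log2 fold change was 0.38 ± 0.30 (SE) with all libraries and -0.075 without that library. The collagenase gene mmp13a was low, with 5, 10 and 19 counts in il26KO and 18, 13 and 11 counts in WT. csf3r, the receptor for granulocyte colony-stimulating factor, had 1.32, 1.09 and 1.06 CPM in il26KO and 0.853, 0.884 and 1.25 CPM in WT. Over the class, levels summed to 7.77 ± 2.31 CPM in il26KO and 7.4 ± 1.03 CPM in WT (SD, n = 3 each), and the il26KO pools alone spanned 6.85, 6.07 and 10.4 CPM.

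Among macrophage genes the genotypes separated in mfap4, which marks macrophages in zebrafish larvae. It had 2.27, 2.11 and 1.83 CPM in il26KO replicates 1, 2 and 3, against 2.92, 2.76 and 2.76 CPM in WT replicates 1, 2 and 3. The il26KO values all lay below the WT values. In raw counts these were 50, 33 and 52 in il26KO and 72, 75 and 66 in WT. The log2 fold change was -0.45 ± 0.16 (SE; interval -0.81 to -0.087). As the unadjusted edgeR p-value was 0.0212 and the adjusted value 0.717, mfap4 was not called. The unadjusted p-value was 0.0821 without il26KO replicate 3, 0.0523 without WT replicate 1 and 0.0775 with DESeq2. The groups overlapped in the other 3 macrophage genes. csf1ra, the receptor for colony-stimulating factor 1, which acts in macrophages and in yellow pigment cells (xanthophores), had 4.99, 4.28 and 3.53 CPM in il26KO and 4.1, 4.53 and 3.72 CPM in WT. The xanthophore markers gch2, aox5, pax7a and pax7b summed to 0.363, 0.958 and 0.317 CPM in il26KO and 0.0812, 0.295 and 1.21 CPM in WT, and xdh had no row. The part of xanthophores in the csf1ra values was not tested. The chemokine receptor gene cxcr3.2, active in larval macrophages, had 0.999, 1.41 and 1.66 CPM in il26KO and 1.06, 1.1 and 1.5 CPM in WT. For havcr1, a phosphatidylserine receptor in mammals, values were 1.82, 1.53 and 2.08 CPM in il26KO and 2.84, 1.91 and 1.46 CPM in WT. The WT values of havcr1 lay on both sides of the il26KO range. Summed macrophage levels were 9.5 ± 0.513 CPM in il26KO and 10.2 ± 0.746 CPM in WT (SD, n = 3 each).

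The 5 tested lymphoid receptor and signalling genes were above the detection limit in all libraries and overlapped between genotypes. il7r, the interleukin-7 receptor needed by T cells and ILCs in mammals, had 1.27, 1.02 and 0.917 CPM in il26KO and 1.1, 0.957 and 1.04 CPM in WT (log2 fold change 0.047 ± 0.23, SE; interval -0.48 to 0.58). The common gamma chain, shared by receptors for several lymphocyte growth factors, has the paralogs il2rga and il2rgb in zebrafish. il2rga had 1.18, 1.47 and 1.06 CPM in il26KO and 1.14, 0.92 and 1.63 CPM in WT. il2rgb had 0.363, 0.639 and 0.635 CPM in il26KO and 0.731, 0.552 and 1.04 CPM in WT, for a log2 fold change of -0.50 ± 0.36 (SE; interval -1.33 to 0.34). In both, the highest value was that of WT replicate 3. The beta chain gene il2rb was among the genes whose spread within genotypes was near counting error, with 2.09, 2.56 and 2.36 CPM in il26KO and 2.31, 2.17 and 2.17 CPM in WT. Its chi-square per degree of freedom within genotypes, which is about 1 for counting error alone, was 0.265. grap2a, related to an adaptor of T cell receptor signalling in mammals, had 1.68, 2.04 and 2.4 CPM in il26KO and 1.79, 1.84 and 2.92 CPM in WT, again highest in WT replicate 3. The kinase gene zap70, which acts below the T cell receptor, had 4, 5 and 0 counts in il26KO and 2, 2 and 3 counts in WT. cd4-1, the T helper and macrophage co-receptor gene, had 3, 1 and 1 counts in il26KO and 1, 1 and 2 counts in WT. cd4-1 did not exceed 3 counts in any library, and zap70 did so in 2 of 6. The tested genes of this class are not restricted to T cells.

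Of the lymphoid transcription factors, runx3 and gata3 took 81.9% to 86.3% of the CPM of their class. runx3, a factor of cytotoxic lymphocytes, had 13.2, 11.1 and 12.1 CPM in il26KO replicates 1, 2 and 3, against 9.99, 11.2 and 11.1 CPM in WT replicates 1, 2 and 3. Its log2 fold change was 0.18 ± 0.10 (SE; interval -0.059 to 0.41; adjusted p = 0.884 with edgeR). Which cells the runx3 mRNA came from was not tested. Of other genes of cytotoxic lymphocytes, cd8a was listed at 0 and nkl.2 had at most 3 counts in any library. gata3, used in the study as a marker of group 2 ILCs and also expressed outside the blood, had 8.31, 7.41 and 7.58 CPM in il26KO and 6.21, 7.18 and 8.48 CPM in WT. eomesa, used there for group 1 ILCs, had 12, 6 and 16 counts in il26KO and 10, 14 and 21 counts in WT. ikzf1 (Ikaros), needed for lymphoid development, had 2.72, 2.75 and 2.5 CPM in il26KO and 2.56, 2.06 and 3.13 CPM in WT. The groups overlapped in all 4 genes, and the highest values of gata3, eomesa and ikzf1 were those of WT replicate 3.

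The genes most specific to recombining lymphocytes and to ILCs had too few counts to test, and their raw counts are therefore given. rag1 had 5, 8 and 10 counts in il26KO replicates 1, 2 and 3, against 1, 4 and 4 counts in WT replicates 1, 2 and 3. Scaled to depth, this was 0.227, 0.511 and 0.353 CPM in il26KO and 0.0406, 0.147 and 0.167 CPM in WT, higher in every il26KO library (exact permutation p = 0.1, two-sided, the smallest value that 3 against 3 libraries can give). This test gives 0.1 for any gene whose groups do not overlap, so the value only restates that. With no count filter, 8 of 41 members did not overlap, rag1, nitr4a and il13 among them, against 10.1% of all genes. Fitted without a count filter, rag1 had an edgeR p-value of 0.0311 and an adjusted one of 0.877. Its partner rag2 had 5, 7 and 9 counts in il26KO and 8, 5 and 3 counts in WT, with overlapping CPM (exact permutation p = 0.3). nitr4a, a gene of the NITR family of immune receptors that the study used to mark ILCs, had 8, 15 and 10 counts in il26KO and 5, 8 and 4 counts in WT. In CPM these were 0.363, 0.958 and 0.353 in il26KO and 0.203, 0.295 and 0.167 in WT, without overlap (exact permutation p = 0.1, the smallest possible). The high value came from il26KO replicate 2, the library with the fewest counts. The study also marked ILCs with nitr9, which was listed at 0 in all libraries here, and such a 0 is not a reliable sign of absence. Another gene of this receptor family, nitr5, had 21, 23 and 33 counts in il26KO and 31, 26 and 26 counts in WT, without such a pattern (log2 fold change 0.10 ± 0.24, SE).

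Cytokine and cytotoxic genes had fewer counts still. il13, encoding the group 2 cytokine, had 1, 0 and 3 counts in il26KO and 6, 3 and 7 counts in WT. Its CPM did not overlap (0.0454, 0 and 0.106 in il26KO, 0.244, 0.11 and 0.292 in WT; exact permutation p = 0.1, the smallest possible), but il26KO replicate 3 and WT replicate 2 were close, each with 3 counts. tnfa, encoding tumour necrosis factor, had 0, 3 and 1 counts in il26KO and 5, 4 and 4 counts in WT, and its CPM overlapped (exact permutation p = 0.3). The NK-lysin gene nkl.2, encoding a pore-forming peptide of cytotoxic lymphocytes, had 0, 0 and 0 counts in il26KO and 1, 3 and 0 counts in WT. Counts of this size do not support a fold change. In the fit without a count filter, il13, tnfa, nkl.2 and nitr4a had edgeR p-values of 0.0566, 0.149, 0.108 and 0.0522, each with an adjusted value of 0.906.

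**Figure D3:**
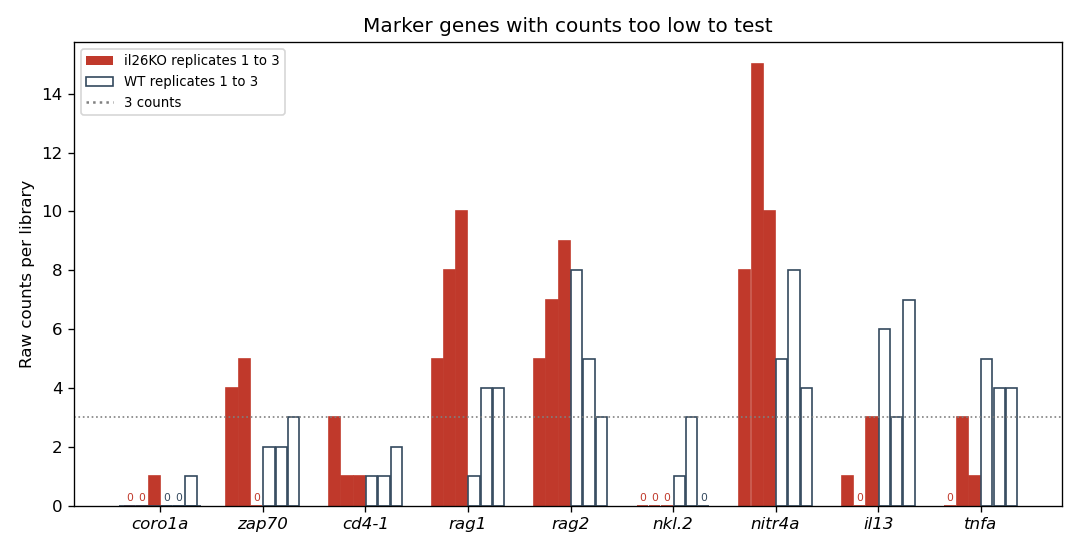
Raw counts per library of the 9 marker genes with at least 1 count that were too low to test, with il26KO replicates 1 to 3 as filled bars left of WT replicates 1 to 3 as open bars and a dotted line at 3 counts. The counts of nitr4a reached 15 in il26KO replicate 2, and those of nkl.2 were 0 in all il26KO libraries and 1, 3 and 0 in WT.

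These data limit how large an undetected difference could be. In 26 of the 32 members the 95% interval lay within a 2-fold change in either direction, and in 14 within a 1.5-fold change. The 6 with wider intervals were cxcr4b, lyz, mmp9, mmp13a, il2rgb and eomesa. For some members, such as cybb and il7r, the edgeR p-value was larger than the interval implies, so such intervals may be too narrow. The median interval reached 0.43 either side of the estimate on the log2 scale, compared with 0.29 over all genes tested. It was widest for neutrophil genes (median 0.70) and narrowest for pan-leukocyte genes (median 0.29). For many members the spread between pools of 1 genotype was not far above counting error, which is large at low counts. The chi-square per degree of freedom of the 32 members had a median of 1.78, against 2.88 over all genes tested, and was below 2 in 17 of 32. It was highest in cebpa, at 44.3, a gene with 14295 counts in total. At a given relative spread this value rises with the count, so it does not rank genes by relative spread. In il26KO, cebpa had 118 ± 12.1 CPM (SD). mpx, with 367 counts and a value of 5.63, had 2.52 ± 1.05 CPM (SD).

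The highest and lowest values were not evenly spread over the pools. WT replicate 3 held the highest value of 8 of the 32 members (25%, against 15.8% of all genes tested), and of 6 of the 9 tested lymphoid genes (il2rga, il2rgb, grap2a, gata3, eomesa and ikzf1). il26KO replicate 1 held the lowest value of 10 members (31.2%, against 19% of all genes tested). It held the highest value of 7 members, a share near that of all genes tested (21.9% against 18.9%). The tallies of 8 highest and 10 lowest values were the largest of any library. Their distance from the shares of all genes was not tested. Each member's deviation from its mean over the 6 libraries was summarized per class. For the receptor and signalling genes the median deviation was -0.12, 0.012 and 0.0031 in il26KO replicates 1, 2 and 3, and 0.026, -0.16 and 0.40 in WT replicates 1, 2 and 3 (log2 CPM). For neutrophil genes it was -0.033, 0.030 and 0.35 in il26KO replicates 1, 2 and 3, and 0.010, -0.23 and 0.22 in WT replicates 1, 2 and 3, so that both replicates numbered 3 were high. The macrophage medians, over only 4 genes, lay on either side of 0 by genotype. They were -0.071, -0.073 and -0.053 in il26KO replicates 1, 2 and 3, and 0.12, 0.066 and 0.014 in WT replicates 1, 2 and 3. Of these 4 genes, 2 had a positive and 2 a negative log2 fold change. The macrophage class sums overlapped between genotypes, but without csf1ra all il26KO sums lay below all WT sums. That sum includes mfap4, the only macrophage gene whose groups did not overlap on its own, while cxcr3.2 and havcr1 overlapped. Class sums separated outside leukocytes too. Enteric neuron markers without vipb summed to 60.2 to 64.3 CPM in il26KO and 55.3 to 59.3 CPM in WT. Without WT replicate 3, 5 of 32 members had an unadjusted edgeR p-value below 0.05 (cebpa and cxcr4b higher, rac2, cyba and mfap4 lower), against 9.13% of all genes tested in that comparison of 3 with 2 libraries. In the same comparison 10 members had groups that did not overlap, against 26.8% of all genes tested. The median log2 fold change was 0.17 over the members and 0.017 over all genes tested. Erythroid markers, which report on blood in the pools, were also highest in WT replicate 3, summing to 45.2, 39.7 and 54.8 CPM in il26KO and 54.3, 72.1 and 103 CPM in WT over 6 genes, with alas2 at 0 or 1 counts. The part of blood in the lymphoid values was not tested.

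**Figure D4:**
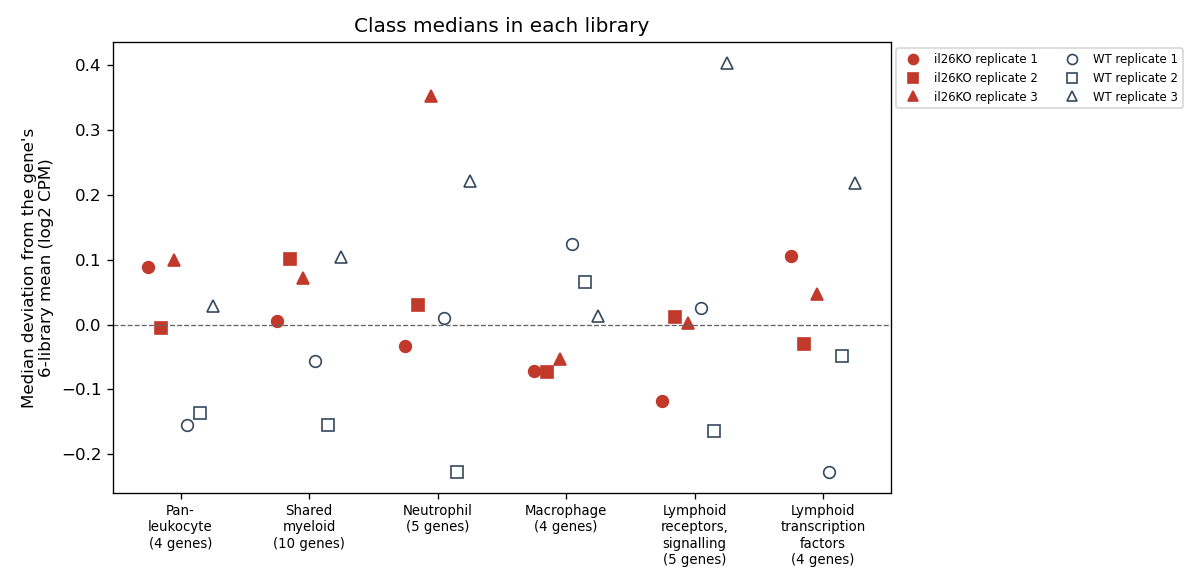
Median deviation of each class of tested marker genes from the 6-library mean (log2 CPM) in each library, with filled symbols for il26KO placed left of open symbols for WT. WT replicate 3 lies highest for both lymphoid classes, at 0.40 and 0.22.

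To place the members among other genes linked to white blood cells, a list of 68 further genes was examined. Of these, 57 were in the table and 34 could be tested. The list was compiled by hand and is not restricted to leukocytes. It held signal genes such as cxcl12a and il34, and cpa5 averaged 9463 CPM in il26KO and 9891 CPM in WT. Like the acinar pancreas markers, cpa5 was lowest in il26KO replicate 1. Shares and medians over this list are therefore not those of leukocyte genes alone. None was called, and 1 had an unadjusted edgeR p-value below 0.05, or 2.94% against 6.03% of all genes. This was ccr9a, a chemokine receptor gene of lymphocytes that home to gut and thymus in mammals, with 4.49, 4.73 and 3.6 CPM in il26KO and 2.8, 3.28 and 2.51 CPM in WT. All il26KO values were higher (log2 fold change 0.56 ± 0.17, SE; adjusted p = 0.585 with edgeR). The groups did not overlap in 3 of the 34 genes, against 10.9% of all genes tested. Besides ccr9a these were irf8 and arhgdig, printed for that reason after their values were seen. irf8, a macrophage-determining factor, was higher in every il26KO library (2.04, 2.17 and 2.15 CPM) than in any WT library (1.79, 1.18 and 1.96 CPM), and its adjusted edgeR p was 0.884. arhgdig was lower in every il26KO library (92.1, 93.3 and 82.8 CPM) than in any WT library (104, 102 and 94.4 CPM), and its adjusted edgeR p was 0.873. The median log2 fold change over the 34 genes was 0.019. The complement genes c1qa, c1qb and c1qc, products of macrophages, were listed at 0 throughout.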

How the data were processed

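RNA was taken from pools of 10 to 15 guts, and 3 il26KO and 3 WT libraries were grouped by sample title. The authors deposited raw counts, 1 column per library, with genes listed by symbol and no normalization. Per the labels, poly(A)-selected stranded libraries were read as 100-bp pairs on a NovaSeq 6000, checked with FastQC 0.11.8 and aligned to danRer11. The aligner, counter, annotation and treatment of shared reads are not given in the sources used here, so counts of close paralogs (il2rga and il2rgb, spi1a and spi1b, cebp, nitr, nkl and cd4 genes) are uncertain. Genes with too few counts were removed by filterByExpr (minimum count 10, minimum total 15), which kept 11095 of 15419. il26KO was set against WT with edgeR 4.0.16 in R 4.3.3, using TMM scaling, the quasi-likelihood test (two-sided) and Benjamini-Hochberg adjustment over all genes kept. CPM used TMM library sizes, and log2 CPM a prior count of 2. Intervals are 95%. Members under the filter were compared by an exact permutation test on CPM, added after seeing the data, in which the smallest p is 0.1.

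Members and lists were chosen with earlier results of these data known. By rule, values per library were given for the 3 members with the highest mean CPM in each class, those with an unadjusted p below 0.05 or groups without overlap, those with counts under the filter, and gata3, eomesa, tnfa, il13, nitr4a, mpx, lyz and mpeg1.1. The remaining tested members were also given. Alternatives were RLE size factors, other count filters, DESeq2 1.42.0, the likelihood ratio test, a robust fit, the replicate number as a block and leaving out each library. Levels per kilobase, though planned, were not computed because no transcript lengths were at hand. The table held 0 columns of unmapped samples. Library depth was 15693057 to 28303340 counts. The fit was tested on simulated data. No 2 libraries agreed within counting error (chi-square per degree of freedom 15.9 to 50.7 over 15 pairs).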

Additional observations from a re-analysis of the deposited data

How the results depend on the processing

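The edgeR test and each alternative (RLE size factors, DESeq2, no count filter or a filter of 10 counts per library, the likelihood ratio test, the robust fit, the replicate block and each library left out) called 0 members after adjustment. Over all genes, 12 calls became 83 with DESeq2, 93 with the likelihood ratio test, 2 with the replicate block and 3 to 8 with 1 library left out. Members with an unadjusted p below 0.05 numbered 2 of 32 with the edgeR test, against 6.03% of all genes tested. They numbered 3 of 41 with no count filter, rag1 added (against 5.31%), and 1 of 32 with DESeq2 (against 4.27%). With a library left out they numbered 1 to 5 of 32, against 3.78% to 9.13% of all genes tested. There was 1 without il26KO replicate 3, 1 without WT replicate 1 and 5 without WT replicate 3. cebpa stayed below 0.05 in 13 of 13 alternatives and mfap4 in 10 of 13. Members without overlap numbered 4 of 32, or 3 with RLE size factors (without rac2), 8 of 41 with no count filter (against 10.1% of all genes) and 5 to 10 with a library left out (against 16.6% to 26.8% of all genes). With a library left out, the median log2 fold change over the members was -0.030 (without WT replicate 2) to 0.17 (without WT replicate 3), against 0.046 with all libraries. The log2 ratio of class sums without the most abundant member was 0.14 for pan-leukocyte, 0.30 for shared myeloid, -0.22 for macrophage and -1.80 for NK and ILC effector genes. The last value rests on il13, tnfa and nkl.2, at 0 to 7 counts per library, which do not support a fold change. With all 4 NK and ILC effector genes summed, the ratio was -0.55 to 0.32 with a library left out. At a limit of 10 counts, 0 in place of 1 NK and ILC effector genes was detected in all libraries. The sign of the log2 fold change turned in spi1b with DESeq2 (0.00073) and the likelihood ratio test (0.0025), in tyrobp with the likelihood ratio test (0.0019) and in mpx with the replicate block (-0.012). In 17 members it also turned when a library was left out, over ranges of spi1b -0.20 to 0.25, cybb -0.12 to 0.028, fcer1gl -0.021 to 0.20, tyrobp -0.23 to 0.21, mpx -0.31 to 0.28, mmp9 -0.075 to 0.57, mmp13a -0.44 to 0.22, csf1ra -0.11 to 0.18, cxcr3.2 -0.040 to 0.33, havcr1 -0.37 to 0.10, il7r -0.12 to 0.16, il2rga -0.18 to 0.24, il2rb -0.0083 to 0.12, grap2a -0.24 to 0.18, gata3 -0.021 to 0.21, eomesa -0.45 to 0.14 and ikzf1 -0.10 to 0.20. The remaining 15 kept their sign throughout. The causes of these changes were not tested.

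Nothing in the labels pairs libraries with the same replicate number. Their deviations from the genotype means correlated at r = -0.226, -0.0426 and 0.114 across genes for numbers 1, 2 and 3, and of the 6 libraries, only the 2 numbered 3 correlated best with their own number. The block changed no call among the members.

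With 3 libraries per genotype, 9 members with between 2 and 50 counts were too low for the main test. Among them were rag1, rag2, nitr4a and il13. Other genes of T cells and ILCs, such as il7r, gata3 and eomesa, were tested, but these are not restricted to those cells. Shared reads between paralogs and genes listed at 0 limit the values further.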
